A study of Mus musculus with 9 samples.

Results

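Collagen genes were taken as every gene whose symbol is Col, a number, a and a number. Of the 24100 genes in the count table, 44 matched, and 38 of them had enough counts to be tested. Fibrillar collagens made up 11 of the 44 genes, collagen IV of basement membranes 6, the basement membrane zone 3, FACIT collagens (which sit on the surface of fibrils) 9, network collagens 3, the beaded filaments of collagen VI 6, transmembrane collagens 4, and 2 belonged to none of these classes.

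Poly(A) RNA was sequenced from mouse embryonic stem cells that had been differentiated into cells labelled neural. All cells, controls included, stably expressed a PiggyBac transgene for an HA-tagged histone H4. The transgene encoded the wild-type histone in the group H4WT, histone with 1 lysine changed to arginine in H4K91R, and histone with the same lysine changed to glutamine in H4K91Q, with 3 libraries per group. The labels name no promoter, no clone and no treatment, and do not say whether the replicates were separate lines or separate differentiations, so a p-value here measures only the spread between these libraries. The series set out to find genes whose expression changes with the H4 mutants.

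Collagens are helical assemblies of several α chains, and each kind of chain is the product of its own gene. A type that mixes different chains therefore needs its partner genes to be expressed together. Fibrillar collagens form the load-bearing fibres of connective tissue, whereas collagen IV forms the sheet-like net of basement membranes that surrounds vessels, epithelia and the surface of the neural tube. Neural tissue itself holds little fibrillar collagen, and much of the collagen in and around it is made by vascular, meningeal and other mesenchymal cells.

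Library totals ran from 8970553 to 28887501 counts, and 3 counts, the most that a count of 0 allows, correspond to 0.111 to 0.367 CPM, a count scaled to library depth with TMM factors. Of 6 neuron markers, 6 rose in both mutants, and their summed level was 156.0 to 223 CPM in H4WT, 719 to 898 in H4K91R and 570.1 to 612 in H4K91Q. Tubb3, Dcx and Elavl3 were all detected in H4WT. Of 6 smooth muscle and myofibroblast markers, among them Acta2, Myh11 and Tagln, 6 fell in both mutants, and their sum was 3898 to 4687 CPM in H4WT, 417 to 689 in H4K91R and 389 to 450 in H4K91Q. The cultures thus held markers of contractile and neural cells side by side. Parietal and primitive endoderm markers, among them Gata4, Gata6 and Sox17, summed to 1148 to 1272 CPM in H4WT, 933 to 991 in H4K91R and 839 to 911 in H4K91Q. Fibroblast markers such as Pdgfra, Pdgfrb and Lum summed to 948 to 1144, 1113 to 1335 and 1463 to 1585 CPM. Pluripotent cell markers (Pou5f1, Nanog and Zfp42 among 4) summed to 32.2 to 56.1 CPM in H4WT, 14.7 to 24.4 in H4K91R and 82.3 to 134 in H4K91Q, and 3 of the 4 fell in H4K91R while 4 rose in H4K91Q. In bulk RNA, fewer cells of a type and less RNA per cell cannot be told apart, and the part of these cell type markers in the collagen results was not tested.

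RefSeq start regions (GRCm38.p6) were available for 35 of the 44 genes. The 250 bases before the start are printed for 5 genes that the results turn on and whose window touches no untranslated region annotated in GENCODE M21. The RefSeq spans of Col23a1 (from chr11:51289679) and Col6a3 (to chr1:90844001) reach into their windows. Part of each of these windows thus lies within the RefSeq gene. Col6a2 and Col6a3 are shown as 2 chains of collagen VI that rose in both mutants, Col23a1 as the gene with the largest rise, and Col8a1 and Col7a1 as genes with large falls. Capitals mark, on either strand, the core letters of the GC box, the CCAAT box, the TATA box, the TEAD motif and the AP-1 site. All are written 5′ to 3′ on the strand of the gene.
Col6a2 (minus strand, chr10:76623631-76623880): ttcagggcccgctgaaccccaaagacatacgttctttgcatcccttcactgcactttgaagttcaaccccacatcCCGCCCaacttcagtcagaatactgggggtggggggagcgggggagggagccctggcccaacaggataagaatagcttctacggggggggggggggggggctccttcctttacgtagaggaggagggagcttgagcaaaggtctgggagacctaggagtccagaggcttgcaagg
Col6a3 (minus strand, chr1:90843972-90844221): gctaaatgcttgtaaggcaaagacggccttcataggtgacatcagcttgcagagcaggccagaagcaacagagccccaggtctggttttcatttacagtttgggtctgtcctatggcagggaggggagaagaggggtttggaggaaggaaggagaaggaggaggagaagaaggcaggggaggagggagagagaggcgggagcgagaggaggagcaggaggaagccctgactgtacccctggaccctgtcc
Col23a1 (plus strand, chr11:51289670-51289919): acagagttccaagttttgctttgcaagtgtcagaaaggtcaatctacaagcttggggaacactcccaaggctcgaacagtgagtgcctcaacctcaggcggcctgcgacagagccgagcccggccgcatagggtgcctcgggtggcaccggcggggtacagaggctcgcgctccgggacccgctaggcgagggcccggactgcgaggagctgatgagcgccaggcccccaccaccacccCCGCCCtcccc
Col8a1 (minus strand, chr16:57754738-57754987): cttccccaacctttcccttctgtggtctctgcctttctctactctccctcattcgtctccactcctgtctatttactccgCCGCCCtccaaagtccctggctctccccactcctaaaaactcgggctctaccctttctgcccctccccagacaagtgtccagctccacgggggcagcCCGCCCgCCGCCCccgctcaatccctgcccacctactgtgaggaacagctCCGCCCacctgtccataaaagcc
Col7a1 (plus strand, chr9:108953336-108953585): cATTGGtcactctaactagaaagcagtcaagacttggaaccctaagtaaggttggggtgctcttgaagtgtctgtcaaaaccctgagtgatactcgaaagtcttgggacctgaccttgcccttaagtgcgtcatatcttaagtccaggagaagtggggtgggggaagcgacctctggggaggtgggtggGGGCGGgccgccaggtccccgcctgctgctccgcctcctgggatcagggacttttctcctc

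GGGCGG, the core of the GC box, was in the window of 21 of the 35 genes and in 32.7% of all 32851 start windows. It was in 8 of the 11 windowed genes that rose in both mutants and in 7 of the 9 that fell in both. CCAAT was in 13 of the 35 and in 33.8% of all windows, with 4 of the 11 and 5 of the 9. TATAAA was in 5 of the 35 (12.4% of all windows) and in no window of either group. CATTCC, the core of the TEAD motif, was in 4 of the 35 (12.6%), with 2 of the 11 and 0 of the 9. These 2 genes, Col6a2 and Col18a1, have more than 1 window, and the hits lay in windows not printed here. Of the 250 bases of those windows, 226 and 241 lie in annotated untranslated regions. TGANTCA, the AP-1 site, was in 1 of the 35 (6.75%), at Col6a1, and the CArG box of serum response factor was in 1 (1.47%), at Col6a4. The motifs were searched on both strands, and CCAAT or TATAAA can lie within a CArG box. The 35 genes had 38 windows, and a gene was counted if any of its windows held the motif, while the percentages are of windows. Of the collagen VI windows printed, that of Col6a2 held GGGCGG and that of Col6a3 held none of the 6 motifs. The window of Col8a1 held GGGCGG at 170, 73, 66 and 23 bases before the start. Col4a1 and Col4a2 lie head to head on chromosome 8, and the window of each, all 250 bases, lies in annotated exons of the other. These matches describe letters only.

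Against H4WT, the collagen genes divided. In H4K91R, 15 of the 38 tested genes rose and 12 fell (71.1%), where 46.0% of all 14761 genes tested were called, 20.9% of them higher and 25.1% lower. In H4K91Q, 15 rose and 11 fell (68.4%), where 46.3% of all genes were called, 22.5% higher and 23.8% lower. Calls are from edgeR's quasi-likelihood test at a Benjamini-Hochberg adjusted p below 0.05. Changes of at least 2-fold were called for 11 higher and 5 lower collagen genes in H4K91R (42.1%, against 13.8% of all genes, 9.18% higher and 4.59% lower) and for 11 higher and 6 lower in H4K91Q (44.7%, against 12.6%, 8.38% higher and 4.17% lower). The median log2 change of the 38 genes was 0.32 in H4K91R and 0.28 in H4K91Q, and that of all genes was -0.03 and 0.01. The libraries of mutant and H4WT did not overlap for 28 of the 38 genes in H4K91R (73.7%, against 55.1% of all genes) and for 29 in H4K91Q (76.3%, against 55.1%).

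Both mutants were set against the same 3 H4WT libraries, so their lists are not independent. Called higher in both were 14 genes: Col5a3, Col15a1, Col18a1, Col9a2, Col14a1, Col16a1, Col22a1, Col6a1, Col6a2, Col6a3, Col6a6, Col23a1, Col25a1 and Col26a1. Called lower in both were 11: Col5a1, Col5a2, Col11a1, Col27a1, Col4a1, Col4a2, Col4a5, Col7a1, Col12a1, Col19a1 and Col8a1. No gene was called in opposite directions. Collagen VI and the transmembrane class held no call below H4WT in either mutant, and collagen IV held none above it. The share of tested genes called in H4K91R and H4K91Q was 75% and 75% for collagen IV, 75% and 75% for FACIT collagens, 80% and 80% for collagen VI, 50% and 75% for transmembrane collagens and 54.5% and 45.5% for fibrillar collagens. For the fibrillar class in both mutants and the transmembrane class in H4K91R it was near the 46.0% and 46.3% of all genes.

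**Figure D1:**
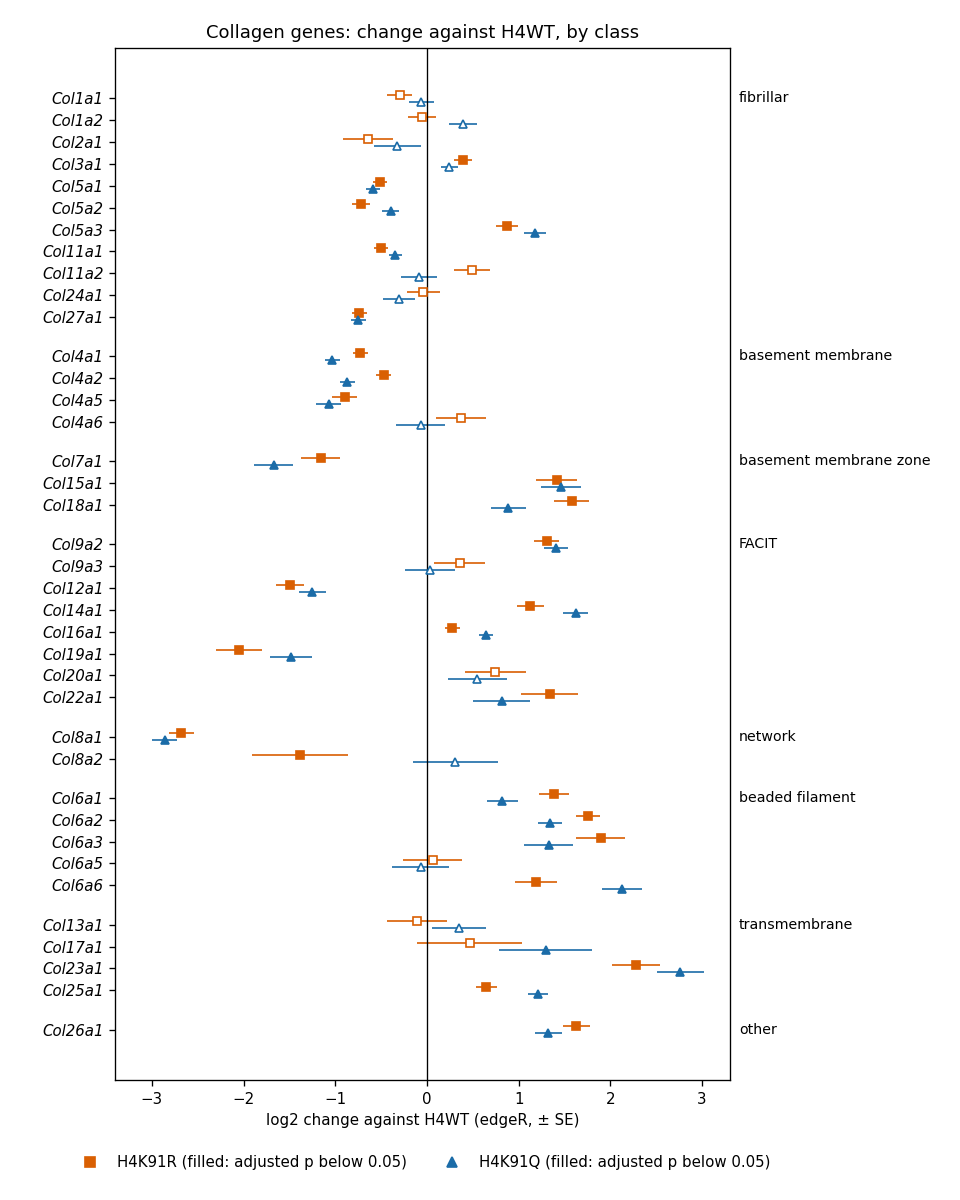
Log2 change against H4WT with its standard error for the 38 tested collagen genes, by class (H4K91R squares, H4K91Q triangles, filled where the edgeR adjusted p is below 0.05). Col4a1, Col4a2, Col4a5 and Col8a1 sit left of 0 and most of collagen VI and the transmembrane class to the right, from -2.86 for Col8a1 to 2.76 for Col23a1, both in H4K91Q.

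Collagen IV took the largest share of the collagen counts in H4WT, and 3 of its 4 tested genes fell in both mutants. Col4a1 (chr8:11198423-11312889) encodes the α chain that, with that of Col4a2, builds the common network of basement membranes. In CPM, Col4a1 had 7555, 7863 and 8046 in H4WT, 5260.4, 4633 and 4278 in H4K91R and 3659.7, 3702 and 4125 in H4K91Q. Every mutant library was below every H4WT library. Col4a1 fell by 0.73 on the log2 scale in H4K91R (SE 0.082, edgeR adjusted p = 1.23e-05) and fell by 1.03 on the log2 scale in H4K91Q (SE 0.082, edgeR adjusted p = 1.17e-06).

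Col4a2 (chr8:11312805-11449287), which runs in the opposite direction from nearly the same start, had 4510.5, 4669.8 and 4976 in H4WT, 3716, 3345 and 3133 in H4K91R and 2472, 2418 and 2873 in H4K91Q CPM. The mutant libraries were again all below those of H4WT. Col4a2 fell by 0.47 on the log2 scale in H4K91R (SE 0.085, edgeR adjusted p = 0.000541) and fell by 0.87 on the log2 scale in H4K91Q (SE 0.085, edgeR adjusted p = 5.10e-06). Per kb of exon the level of Col4a1 exceeded that of Col4a2 by 1.62 ± 0.035 times in H4WT (SD, n = 3), 1.35 ± 0.025 in H4K91R and 1.45 ± 0.047 in H4K91Q. The partners therefore did not change by the same factor. The ratio was lower in every mutant library (1.33 to 1.49) than in every H4WT library (1.58 to 1.64). Antisense gene models overlap Col4a1 by 6081 bases and Col4a2 by 18707 bases, introns included, and the counting is not stated to use strand.

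Col4a5 and Col4a6, a second head-to-head pair, 1.3 kb apart on the X chromosome, encode chains of the α5 and α6 network found in a narrower range of basement membranes. Col4a5 had 50.6, 54.2 and 64.8 in H4WT, 28.4, 28.3 and 34.4 in H4K91R and 22.3, 25.6 and 32.9 in H4K91Q CPM. All 6 mutant libraries lay below H4WT, and Col4a5 fell by 0.90 on the log2 scale in H4K91R (SE 0.14, edgeR adjusted p = 0.00017) and fell by 1.07 on the log2 scale in H4K91Q (SE 0.14, edgeR adjusted p = 3.94e-05). Its neighbour Col4a6 had 2.77, 5.04 and 5.02 in H4WT, 4.09, 6.45 and 6.99 in H4K91R and 3.302, 4.04 and 5.45 in H4K91Q CPM, so that the groups overlapped. Col4a6 differed by 0.37 on the log2 scale in H4K91R (SE 0.27, edgeR adjusted p = 0.281) and differed by -0.07 on the log2 scale in H4K91Q (SE 0.27, edgeR adjusted p = 0.85), neither of which passed the test. The remaining chains, Col4a3 and Col4a4, reached at most 12 counts in a library and were not tested.

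The collagens of the basement membrane zone did not follow collagen IV. Col18a1, whose product carries endostatin at its end and lies in vascular and epithelial basement membranes, had 88.6, 59.5 and 62.3 in H4WT, 273, 183 and 166 in H4K91R and 151, 108 and 127 in H4K91Q CPM. Every mutant library was above H4WT. Col18a1 rose by 1.58 on the log2 scale in H4K91R (SE 0.19, edgeR adjusted p = 2.38e-05) and rose by 0.89 on the log2 scale in H4K91Q (SE 0.19, edgeR adjusted p = 0.00212). The gene model of Slc19a1 overlaps that of Col18a1 on the other strand by 8825 bases, introns included. Without strand in the counting, reads from any exons that overlap there could not be told apart, and the overlap of exons was not measured.

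Col15a1, the closest relative of Col18a1, was low, with 3.49, 2.33 and 2.33 in H4WT, 7.596, 5.03 and 8.37 in H4K91R and 7.55, 6.58 and 7.56 in H4K91Q CPM. It rose by 1.41 on the log2 scale in H4K91R (SE 0.23, edgeR adjusted p = 0.000195) and rose by 1.46 on the log2 scale in H4K91Q (SE 0.22, edgeR adjusted p = 0.000125). Col7a1, which makes the anchoring fibrils beneath stratified epithelia, moved the other way, from 15.5, 9.85 and 9.67 in H4WT, 6.503, 4.17 and 4.43 in H4K91R and 3.43, 3.64 and 3.75 in H4K91Q CPM. The mutant libraries did not overlap those of H4WT for either gene. Col7a1 fell by 1.16 on the log2 scale in H4K91R (SE 0.21, edgeR adjusted p = 0.000609) and fell by 1.67 on the log2 scale in H4K91Q (SE 0.21, edgeR adjusted p = 3.50e-05). Of 5 tested epithelial and surface ectoderm markers, 4 fell in both mutants (80% called, against 46.0% and 46.3% of all genes). The list summed to 1207 to 1337 CPM in H4WT, 696 to 785 in H4K91R and 770.1 to 888 in H4K91Q. Among that list Epcam did not pass the test, Cdh1 and Krt8 fell, and Trp63, at most 0.41 CPM, was too low to be tested. The part of these markers in the change of Col7a1 was not tested.

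**Figure D2:**
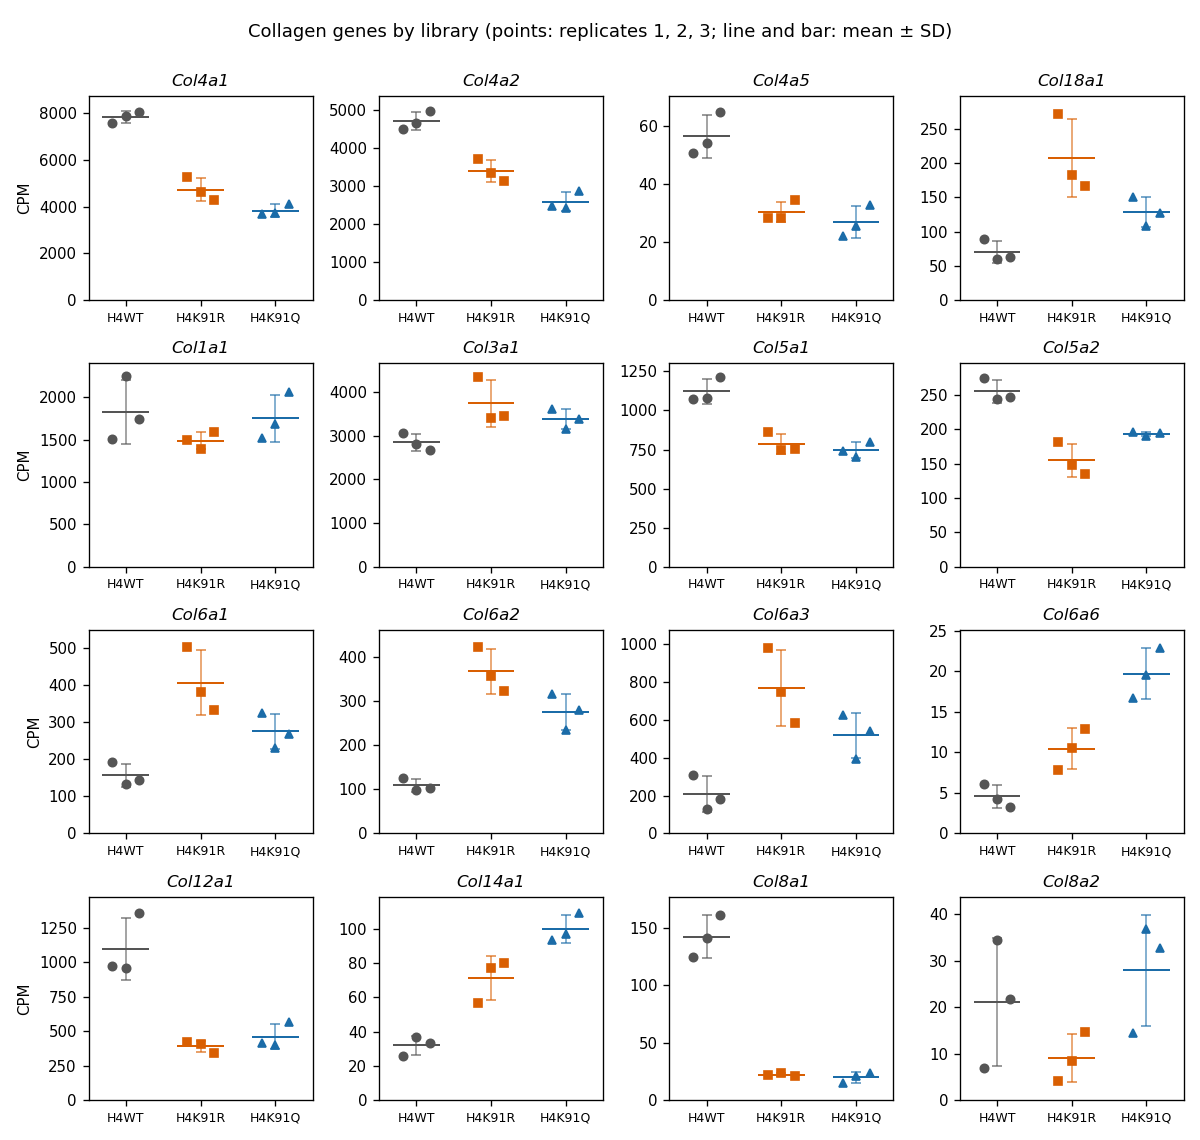
CPM of 16 collagen genes in each library (points are replicates 1, 2 and 3 from left to right, lines and bars are mean ± SD). Col4a1, Col4a2, Col4a5, Col5a1, Col5a2, Col12a1 and Col8a1 are lower in all mutant libraries and Col18a1, Col6a1, Col6a2, Col6a3, Col6a6 and Col14a1 higher, while Col1a1 and Col8a2 overlap.

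Of the 11 fibrillar genes, 2 rose and 4 fell in H4K91R (54.5%, against 46.0% of all genes) and 1 rose and 4 fell in H4K91Q (45.5%, against 46.3%), and no fibrillar gene was called with a change of 2-fold in H4K91R. Col1a1 encodes the main chain of collagen I, the chief collagen of bone, tendon and skin. Col1a1 had 1503, 2246 and 1742 in H4WT, 1494, 1385 and 1590.4 in H4K91R and 1517, 1682 and 2059.6 in H4K91Q CPM. The groups overlapped, and Col1a1 differed by -0.30 on the log2 scale in H4K91R (SE 0.14, edgeR adjusted p = 0.0911) and differed by -0.06 on the log2 scale in H4K91Q (SE 0.14, edgeR adjusted p = 0.733), so neither change passed the test. Col1a2, its partner chain, had 458, 757 and 570.4 in H4WT, 515, 543 and 663 in H4K91R and 688, 809 and 852 in H4K91Q CPM. It differed by -0.06 on the log2 scale in H4K91R (SE 0.15, edgeR adjusted p = 0.791) and differed by 0.39 on the log2 scale in H4K91Q (SE 0.15, edgeR adjusted p = 0.0508), with neither past the threshold. The second lay at the threshold, and each of the 8 other ways of scaling, filtering, testing or blocking called Col1a2 higher in H4K91Q (log2 changes 0.40 to 0.56, adjusted p = 0.00897 to 0.0478), as did 4 of the 9 fits with a library left out. With the replicate number as a block, which treats same-numbered libraries as paired though the labels name no shared source, the log2 change was 0.41 (edgeR adjusted p = 0.0103). Without H4WT replicate 2, the highest H4WT library for both genes, it was 0.60 (edgeR adjusted p = 0.0027).

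Col3a1 encodes collagen III, which is made with collagen I in vessel walls and skin. It had 3058, 2805 and 2674 in H4WT, 4351, 3408 and 3442 in H4K91R and 3603, 3146 and 3369 in H4K91Q CPM. All mutant libraries were above all H4WT libraries. Col3a1 rose by 0.39 on the log2 scale in H4K91R (SE 0.097, edgeR adjusted p = 0.00504) and differed by 0.24 on the log2 scale in H4K91Q (SE 0.097, edgeR adjusted p = 0.0542), and the second did not pass the threshold. For Col3a1 in H4K91Q, 7 of the 8 other ways called a rise (log2 changes 0.25 to 0.42, adjusted p = 0.00258 to 0.0493), all but RLE scaling, as did 4 of the 9 fits with a library left out. With the replicate block the log2 change was 0.25 (edgeR adjusted p = 0.0205).

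Col5a2 is the neighbour of Col3a1 on chromosome 1, tail to tail and 24.6 kb away, and encodes a chain of collagen V, which starts fibrils and limits their width. Col5a2 had 275, 244 and 247 in H4WT, 181, 148 and 135 in H4K91R and 196, 191 and 195 in H4K91Q CPM. Its libraries were lower in both mutants, against those of Col3a1. Col5a2 fell by 0.72 on the log2 scale in H4K91R (SE 0.095, edgeR adjusted p = 4.70e-05) and fell by 0.40 on the log2 scale in H4K91Q (SE 0.094, edgeR adjusted p = 0.00396), the latter lost with library-size scaling (log2 change -0.23, edgeR adjusted p = 0.055). Per kb of exon, the ratio of Col3a1 to Col5a2 was 13.3 ± 0.41 (SD, n = 3) in H4WT, 28.8 ± 1.48 in H4K91R and 20.7 ± 1.15 in H4K91Q, with no overlap between any 2 groups.

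Col5a1, the partner of Col5a2, had 1073, 1083 and 1215 in H4WT, 862, 750.04 and 751 in H4K91R and 740.4, 703 and 799 in H4K91Q CPM. It fell by 0.51 on the log2 scale in H4K91R (SE 0.081, edgeR adjusted p = 0.000195) and fell by 0.59 on the log2 scale in H4K91Q (SE 0.081, edgeR adjusted p = 6.94e-05). The third collagen V gene, Col5a3, went the other way at a far lower level, with 10.6, 12.5 and 10.04 in H4WT, 18.4, 20.2 and 23.6 in H4K91R and 25.1, 24.8 and 26.95 in H4K91Q CPM. Col5a3 rose by 0.87 on the log2 scale in H4K91R (SE 0.12, edgeR adjusted p = 7.20e-05) and rose by 1.18 on the log2 scale in H4K91Q (SE 0.12, edgeR adjusted p = 5.40e-06). For both genes the mutant libraries did not overlap those of H4WT.

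Col11a1, a chain of collagen XI, which nucleates fibrils in cartilage and in other tissues, had 372, 397 and 406 in H4WT, 297, 277 and 255 in H4K91R and 297, 312 and 315 in H4K91Q CPM. Its mutant libraries were all below H4WT. Col11a1 fell by 0.50 on the log2 scale in H4K91R (SE 0.071, edgeR adjusted p = 8.09e-05) and fell by 0.34 on the log2 scale in H4K91Q (SE 0.071, edgeR adjusted p = 0.00152), the latter lost with library-size scaling (log2 change -0.17, edgeR adjusted p = 0.0592). Col27a1, a fibrillar collagen of developing cartilage, had 101, 103 and 108 in H4WT, 67.3, 61.5 and 58.1 in H4K91R and 55.9, 65.2 and 65.1 in H4K91Q CPM. It fell by 0.74 on the log2 scale in H4K91R (SE 0.082, edgeR adjusted p = 1.06e-05) and fell by 0.75 on the log2 scale in H4K91Q (SE 0.081, edgeR adjusted p = 1.03e-05). The mutant libraries of Col27a1 were all below H4WT as well. Col2a1, Col11a2 and Col24a1 had group means between 3.46 and 13.3 CPM, and none was called in either mutant. Col2a1 was called lower in H4K91R in 3 of the 8 other ways of fitting (log2 changes -0.65 to -0.58, adjusted p = 0.0223 to 0.0313) and in 4 of the 9 fits with a library left out. Col11a2 was called higher there with RLE and library-size scaling (log2 changes 0.52 and 0.67, edgeR adjusted p = 0.0488 and 0.0142). Chondrocyte markers summed to 19.5 to 21.1 CPM in H4WT, 31.9 to 36.7 in H4K91R and 30.8 to 35.3 in H4K91Q. Most of that sum was Sox9, which is also made outside cartilage and rose in both mutants from a mean of 15.2 CPM to 29.8 and 28.4. Matn3 fell in both (log2 changes -1.09 and -1.10), and Acan and Matn1 were too low to be tested.

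Of the 5 tested collagen VI genes, 4 rose in each mutant. Its chains assemble into beaded microfilaments that link cells to the surrounding matrix. Col6a1 had 192, 133 and 145 in H4WT, 504, 382 and 333 in H4K91R and 325, 232 and 269 in H4K91Q CPM. Every mutant library was above every H4WT library, and Col6a1 rose by 1.38 on the log2 scale in H4K91R (SE 0.17, edgeR adjusted p = 2.35e-05) and rose by 0.82 on the log2 scale in H4K91Q (SE 0.17, edgeR adjusted p = 0.00146). Col6a2, which lies 85.2 kb from Col6a1 on chromosome 10 in the same orientation, had 126, 98.4 and 103 in H4WT, 422, 355 and 321 in H4K91R and 314, 233 and 279 in H4K91Q CPM. It rose by 1.75 on the log2 scale in H4K91R (SE 0.13, edgeR adjusted p = 3.98e-07) and rose by 1.34 on the log2 scale in H4K91Q (SE 0.13, edgeR adjusted p = 4.05e-06).

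Col6a3 encodes the largest of the common chains and lies on chromosome 1. It had 311, 131 and 184 in H4WT, 983, 748 and 582 in H4K91R and 627, 392 and 543 in H4K91Q CPM, and its mutant libraries were above H4WT without exception. Col6a3 rose by 1.90 on the log2 scale in H4K91R (SE 0.27, edgeR adjusted p = 0.000101) and rose by 1.33 on the log2 scale in H4K91Q (SE 0.27, edgeR adjusted p = 0.00149). In each group replicate 1 had the highest value of Col6a1, Col6a2, Col6a3, Col18a1 and Col26a1. For each of these 5 genes the highest H4WT library was below the lowest mutant library.

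The alternative chains of collagen VI lie together on chromosome 9, as Col6a6, Col6a5 and Col6a4, with 27.8 and 27.9 kb between them. Col6a6 had 6.13, 4.26 and 3.31 in H4WT, 7.83, 10.5 and 12.9 in H4K91R and 16.7, 19.5 and 22.9 in H4K91Q CPM. Its groups stood apart from each other, with H4WT lowest and H4K91Q highest. Col6a6 rose by 1.19 on the log2 scale in H4K91R (SE 0.23, edgeR adjusted p = 0.000897) and rose by 2.13 on the log2 scale in H4K91Q (SE 0.22, edgeR adjusted p = 5.71e-06). Its neighbour Col6a5 stayed low, with 1.44, 2.19 and 3.67 in H4WT, 1.899, 2.67 and 3.05 in H4K91R and 2.66, 1.59 and 2.52 in H4K91Q CPM. Col6a5 differed by 0.07 on the log2 scale in H4K91R (SE 0.32, edgeR adjusted p = 0.888) and differed by -0.07 on the log2 scale in H4K91Q (SE 0.31, edgeR adjusted p = 0.875), and neither passed the test. Col6a4 had at most 16 counts in a library and was not tested.

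Per kb of exon, Col6a1 exceeded Col6a2 by 2.09 ± 0.14 times in H4WT (SD, n = 3), 1.61 ± 0.12 in H4K91R and 1.46 ± 0.054 in H4K91Q. All mutant libraries (1.41 to 1.75) were below H4WT (1.98 to 2.24). Col6a3 stood at 0.489 ± 0.12 times Col6a1 in H4WT, 0.712 ± 0.045 in H4K91R and 0.710 ± 0.064 in H4K91Q. Col6a2 and Col6a3 thus came closer in level to Col6a1 in both mutants. This is by description, since 3 libraries against 3 cannot give an exact two-sided permutation p below 0.1. The mean CPM per kb of Col6a3 and Col6a2 was 19.25 and 18.14 in H4WT, 71.05 and 60.95 in H4K91R, and 47.96 and 45.84 in H4K91Q.

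**Figure D3:**
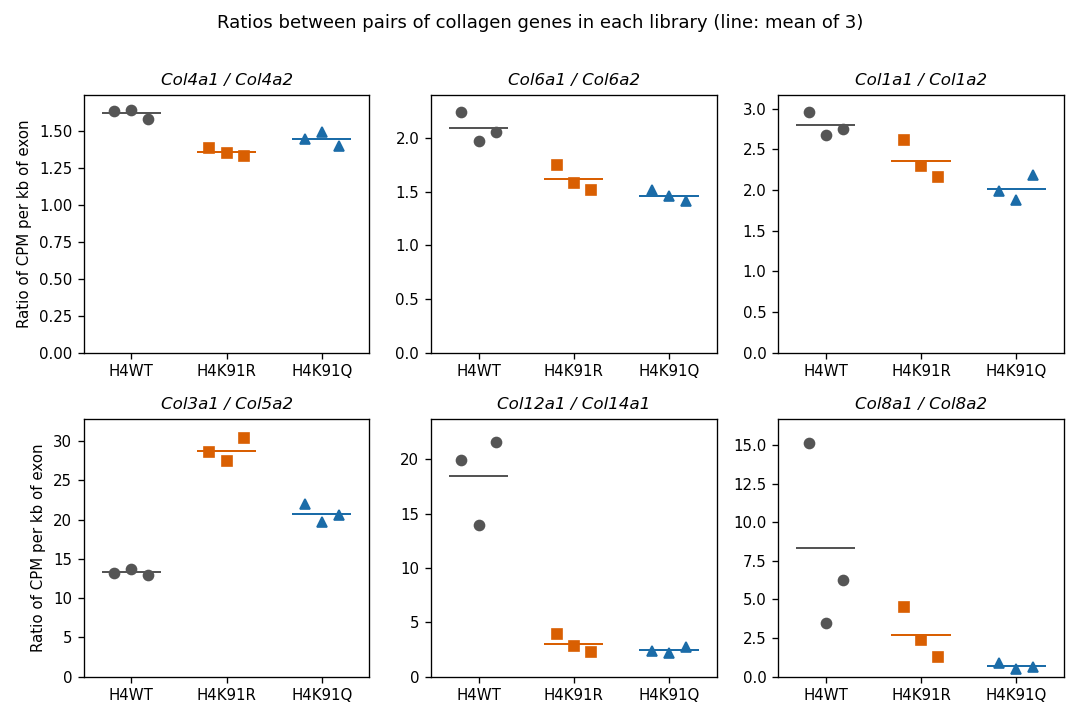
Ratio of CPM per kb of exon between 6 pairs of collagen genes in each library (points) with the mean of 3 (line). The Col4a1 to Col4a2 and Col6a1 to Col6a2 ratios are lower in all mutant libraries, the Col3a1 to Col5a2 ratio is higher (13.3 in H4WT, 28.8 in H4K91R, 20.7 in H4K91Q) and the Col8a1 to Col8a2 ratio in H4WT spreads from 3.48 to 15.2.

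FACIT collagens changed in both directions, with 4 of the 8 tested genes higher and 2 lower in each mutant. Col12a1 encodes collagen XII, which coats fibrils rich in collagen I and is made by fibroblasts under tension. It had 974, 959.5 and 1354 in H4WT, 419, 407 and 342 in H4K91R and 417, 397 and 567 in H4K91Q CPM. No mutant library reached the lowest H4WT library. Col12a1 fell by 1.49 on the log2 scale in H4K91R (SE 0.15, edgeR adjusted p = 5.43e-06) and fell by 1.25 on the log2 scale in H4K91Q (SE 0.15, edgeR adjusted p = 2.56e-05).

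Col14a1, the closest relative of Col12a1, had 25.97, 36.7 and 33.3 in H4WT, 56.6, 77.1 and 80.3 in H4K91R and 93.5, 96.8 and 109 in H4K91Q CPM. It rose where Col12a1 fell, and no 2 groups overlapped. Col14a1 rose by 1.13 on the log2 scale in H4K91R (SE 0.14, edgeR adjusted p = 2.98e-05) and rose by 1.62 on the log2 scale in H4K91Q (SE 0.14, edgeR adjusted p = 2.01e-06). Per kb of exon, Col12a1 exceeded Col14a1 by 18.5 ± 4.05 times in H4WT (SD, n = 3), 3.002 ± 0.85 in H4K91R and 2.44 ± 0.30 in H4K91Q. Antisense gene models overlap both genes, and the counting is not stated to use strand.

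Col19a1, a minor FACIT collagen, had 25.4, 14.4 and 21.7 in H4WT, 5.24, 5.898 and 2.95 in H4K91R and 5.75, 7.72 and 8.03 in H4K91Q CPM. Col19a1 fell by 2.05 on the log2 scale in H4K91R (SE 0.25, edgeR adjusted p = 2.20e-05) and fell by 1.48 on the log2 scale in H4K91Q (SE 0.23, edgeR adjusted p = 0.000171). Its neighbour Col9a1, 4.9 kb away, had at most 7 counts in a library and was not tested. Col9a2, a chain of cartilage collagen IX, had 5.53, 8.37 and 7.35 in H4WT, 18.5, 17.1 and 18.8 in H4K91R and 18.3, 20.3 and 20.04 in H4K91Q CPM. It rose by 1.30 on the log2 scale in H4K91R (SE 0.14, edgeR adjusted p = 5.75e-06) and rose by 1.41 on the log2 scale in H4K91Q (SE 0.13, edgeR adjusted p = 3.30e-06). For neither Col19a1 nor Col9a2 did mutant libraries overlap those of H4WT, and a chain that Col9a2 needs to form collagen IX, that of Col9a1, was close to 0.

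Col16a1, a FACIT collagen of many tissues, had 61.7, 60.9 and 53.3 in H4WT, 70.4, 69.1 and 74.2 in H4K91R and 87.1, 96.4 and 91.8 in H4K91Q CPM. It rose by 0.28 on the log2 scale in H4K91R (SE 0.077, edgeR adjusted p = 0.00974) and rose by 0.64 on the log2 scale in H4K91Q (SE 0.076, edgeR adjusted p = 1.96e-05), small changes between groups of which no 2 overlapped. Col22a1, a collagen of muscle and tendon junctions, had 1.44, 2.52 and 2.204 in H4WT, 3.68, 5.43 and 7.98 in H4K91R and 3.26, 3.44 and 4.92 in H4K91Q CPM. Col22a1 rose by 1.34 on the log2 scale in H4K91R (SE 0.31, edgeR adjusted p = 0.00289) and rose by 0.81 on the log2 scale in H4K91Q (SE 0.31, edgeR adjusted p = 0.0428). The second call was lost when H4WT replicate 1 was left out (log2 change 0.66, edgeR adjusted p = 0.126), as it was without H4WT replicate 3, H4K91R replicate 2, H4K91Q replicate 2 or H4K91Q replicate 3. With all libraries it was lost with limma-voom (log2 change 0.77, adjusted p = 0.0695). Col9a3 and Col20a1 had group means between 0.682 and 1.69 CPM and were not called.

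Among the tested collagens, the network collagen Col8a1 had the largest fall in both mutants. Collagen VIII is a short-chain collagen of the Descemet membrane of the cornea and of vessel walls, where smooth muscle cells make it. Col8a1 had 125, 141 and 162 in H4WT, 21.9, 23.6 and 21.3 in H4K91R and 14.9, 20.8 and 23.5 in H4K91Q CPM. No value of the mutants came near H4WT. Col8a1 fell by 2.68 on the log2 scale in H4K91R (SE 0.14, edgeR adjusted p = 5.04e-08) and fell by 2.86 on the log2 scale in H4K91Q (SE 0.14, edgeR adjusted p = 7.61e-08). It moved beside the smooth muscle markers, 6 of 6 of which also fell in both mutants (Acta2 from a mean of 2479 CPM in H4WT to 315 and 245 in H4K91R and H4K91Q), and their part in its change was not tested.

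Col8a2, the partner of Col8a1, varied widely within groups, with 6.97, 34.4 and 21.8 in H4WT, 4.14, 8.49 and 14.6 in H4K91R and 14.4, 36.8 and 32.8 in H4K91Q CPM. The groups overlapped. Col8a2 fell by 1.38 on the log2 scale in H4K91R (SE 0.52, edgeR adjusted p = 0.0439) and differed by 0.31 on the log2 scale in H4K91Q (SE 0.46, edgeR adjusted p = 0.606), and the second did not pass. Without H4WT replicate 2 the log2 change in H4K91R was -0.73 (edgeR adjusted p = 0.322). The call was also lost without H4WT replicate 3, H4K91R replicate 1, H4K91R replicate 2 or H4K91Q replicate 3. With all libraries it was lost with DESeq2 (adjusted p = 0.168), limma-voom (adjusted p = 0.0665) and library-size scaling (edgeR adjusted p = 0.0709). Col10a1, the collagen of hypertrophic cartilage, had at most 5 counts in a library and was not tested.

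Of 4 transmembrane collagens, 2 rose in H4K91R and 3 in H4K91Q. Col23a1 showed the largest rise of the family. It had 3.61, 6.33 and 4.899 in H4WT, 17.2, 26.5 and 34.96 in H4K91R and 30.9, 36.6 and 40.8 in H4K91Q CPM, and all 6 mutant libraries were above H4WT. Col23a1 rose by 2.28 on the log2 scale in H4K91R (SE 0.26, edgeR adjusted p = 1.11e-05) and rose by 2.76 on the log2 scale in H4K91Q (SE 0.26, edgeR adjusted p = 2.51e-06). Col25a1, expressed by neurons and named for its part in amyloid plaques, had 15.6, 19.1 and 18.4 in H4WT, 31.3, 25.6 and 26.98 in H4K91R and 37.99, 42.8 and 44.003 in H4K91Q CPM. Col25a1 rose by 0.65 on the log2 scale in H4K91R (SE 0.11, edgeR adjusted p = 0.00035) and rose by 1.21 on the log2 scale in H4K91Q (SE 0.11, edgeR adjusted p = 2.18e-06). Both rose beside the neuron markers, 6 of 6 of which were higher in both mutants, and the part of neuron number in this was not tested. Between the mutants, 4 of the 6 neuron markers were called lower in H4K91Q and Col25a1 was called higher. Col23a1 differed by 0.48 on the log2 scale in H4K91Q against H4K91R (SE 0.21, edgeR adjusted p = 0.191), which did not pass the test. The cause of these differences was not tested.

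Col17a1, the collagen of hemidesmosomes, lay near the detection limit with 0.481, 0.741 and 0 in H4WT, 0.518, 0.786 and 0.985 in H4K91R and 1.16, 1.74 and 0.996 in H4K91Q CPM. Col17a1 differed by 0.47 on the log2 scale in H4K91R (SE 0.57, edgeR adjusted p = 0.532), which did not pass the test, and rose by 1.30 on the log2 scale in H4K91Q (SE 0.51, edgeR adjusted p = 0.0404). Leaving out H4WT replicate 1, H4WT replicate 3, H4K91R replicate 2, H4K91Q replicate 1 or H4K91Q replicate 2 ended that call, with adjusted p from 0.0551 to 0.142. Col13a1 had group means between 1.23 and 1.75 CPM and was not called. Outside these classes, Col26a1, a short secreted collagen, had 58.1, 39.9 and 41.9 in H4WT, 165, 131 and 130.4 in H4K91R and 135, 103 and 108 in H4K91Q CPM. Col26a1 rose by 1.63 on the log2 scale in H4K91R (SE 0.15, edgeR adjusted p = 2.11e-06) and rose by 1.32 on the log2 scale in H4K91Q (SE 0.15, edgeR adjusted p = 1.35e-05), and all mutant libraries were above H4WT. Col28a1 had at most 10 counts in a library and was not tested.

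Levels of different genes were compared per kb of exon. In H4WT, Col4a1 led with 1182 ± 37.5 CPM per kb (SD, n = 3), followed by Col4a2 with 732 ± 36.7, Col3a1 with 511 ± 35.1 and Col1a1 with 309 ± 63.9. In H4K91R, Col4a1 (714 ± 75.2) and Col3a1 (671 ± 96.1) differed by less than their spread. The same held in H4K91Q for Col3a1 (606 ± 41.02) and Col4a1 (579 ± 38.9). Within libraries, Col4a1 stood above Col3a1 by 2.08 to 2.53 times in H4WT and by 1.02 to 1.14 times in H4K91R, and in H4K91Q in 1 of 3 libraries, at 0.854 to 1.03 times. Below these, Col6a1, Col6a2, Col6a3 and Col26a1 moved up the order in both mutants, and Col12a1 and Col8a1 moved down.

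**Figure D4:**
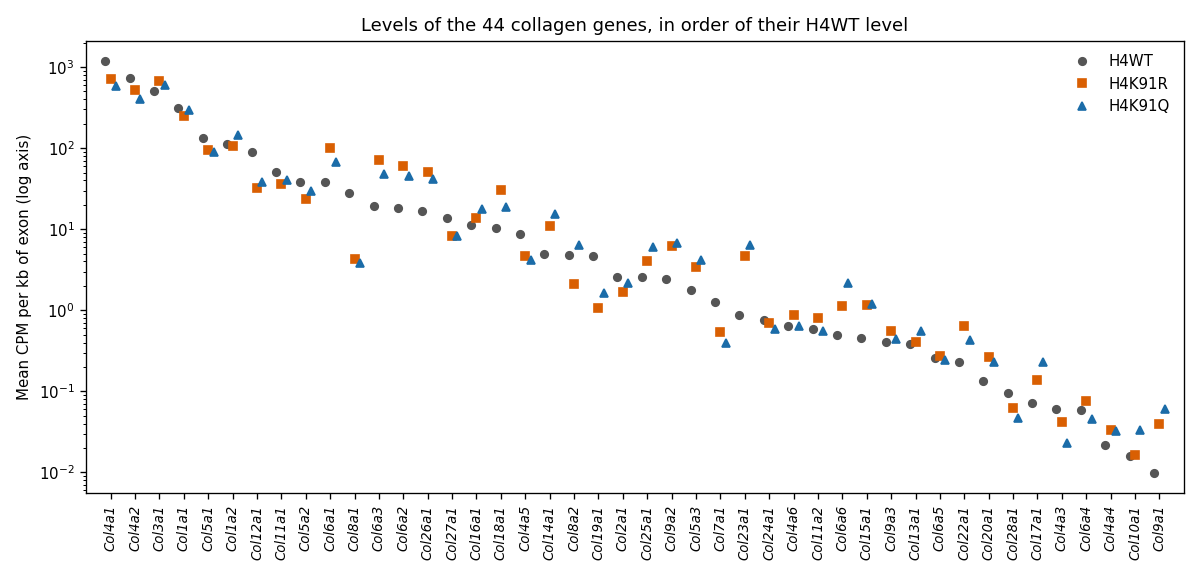
Mean CPM per kb of exon (log axis) of the 44 collagen genes in each group, in order of their H4WT level. The levels span from 1182 for Col4a1 to below 0.1 for the untested genes, and the marks of Col8a1, Col12a1 and Col19a1 fall under their H4WT mark while those of Col6a1, Col6a2, Col6a3, Col18a1 and Col23a1 stand over it.

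All 44 genes together took 1.93% to 2.06% of the counts of the H4WT libraries, 1.73% to 2.06% in H4K91R and 1.55% to 1.78% in H4K91Q. H4K91R overlapped H4WT, and H4K91Q lay below it. Within the collagen counts, collagen IV took 57.8% ± 0.76 (SD, n = 3) in H4WT, 45.7% ± 0.96 in H4K91R and 40.6% ± 1.002 in H4K91Q. The fibrillar share was 32.9% ± 1.76, 39.9% ± 1.68 and 45.8% ± 0.63. Collagen VI took 2.22% ± 0.71, 8.66% ± 1.06 and 6.88% ± 1.22, and FACIT collagens 5.58% ± 0.90, 3.17% ± 0.26 and 4.30% ± 0.36. For these 4 classes every mutant library lay on 1 side of every H4WT library. Shares sum to a whole, so a larger fibrillar share does not mean more fibrillar RNA, and Col1a1 itself was not called.

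**Figure D5:**
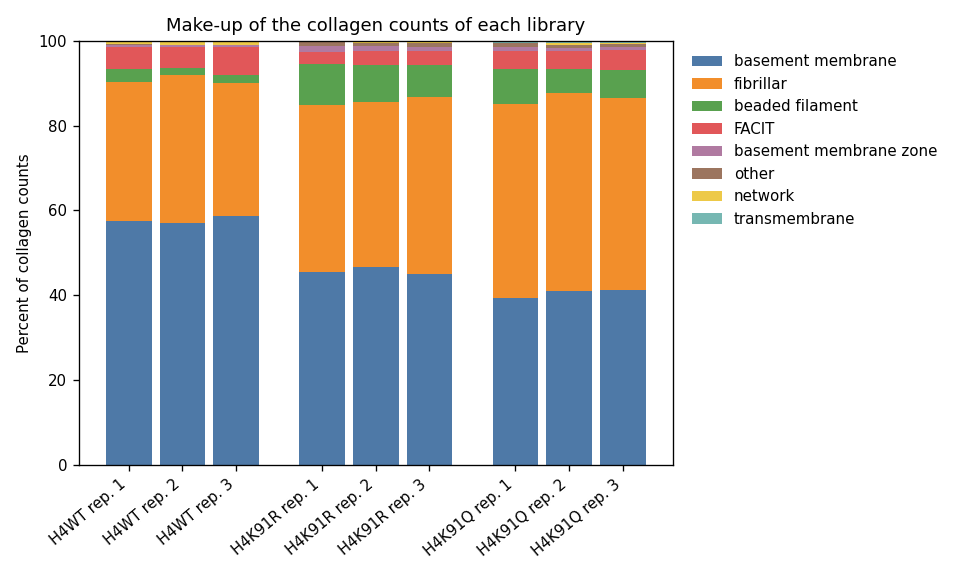
Percent of the collagen counts of each library taken by each class, stacked to 100. Collagen IV (the lowest bar segment) falls from a mean of 57.8% in H4WT to 45.7% in H4K91R and 40.6% in H4K91Q, and the beaded filament segment widens from 2.22% to 8.66% and 6.88%.

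The direct contrast of the mutants called few collagen genes. In H4K91Q against H4K91R, 3 of 38 were higher and 2 lower (13.2%, where 5.16% of all genes were called, 2.37% higher and 2.78% lower). The groups did not overlap for 18 (47.4%, against 25.4% of all genes). Col6a6 rose by 0.94 on the log2 scale in H4K91Q against H4K91R (SE 0.19, edgeR adjusted p = 0.0167), Col25a1 rose by 0.57 on the log2 scale in H4K91Q against H4K91R (SE 0.10, edgeR adjusted p = 0.00956), and Col16a1 rose by 0.37 on the log2 scale in H4K91Q against H4K91R (SE 0.074, edgeR adjusted p = 0.0172). Col4a2 fell by 0.39 on the log2 scale in H4K91Q against H4K91R (SE 0.085, edgeR adjusted p = 0.0214) and Col18a1 fell by 0.69 on the log2 scale in H4K91Q against H4K91R (SE 0.18, edgeR adjusted p = 0.0492). Of the other chains of these trimers, Col4a1 differed by -0.30 on the log2 scale in H4K91Q against H4K91R (SE 0.082, edgeR adjusted p = 0.0516), Col6a1 differed by -0.56 on the log2 scale in H4K91Q against H4K91R (SE 0.16, edgeR adjusted p = 0.0682) and Col6a2 differed by -0.41 on the log2 scale in H4K91Q against H4K91R (SE 0.12, edgeR adjusted p = 0.074), and none of the 3 passed the test. Of the 8 other ways of fitting, 5 called Col4a1 lower (adjusted p = 0.00667 to 0.0423), 2 called Col6a1 lower (0.00186 and 0.0166) and 3 called Col6a2 lower (0.00845 to 0.0298). Each of the 5 calls was lost when H4K91R replicate 2 was left out, and without H4K91R replicate 1 only that of Col25a1 stood among the 5. Cell type markers moved with this contrast. Of 4 pluripotent cell markers 4 were higher in H4K91Q (Pou5f1 by 2.65 and Nanog by 3.04 on the log2 scale), of 6 neuron markers 4 were lower (Dcx by a log2 change of -0.48 and Elavl3 by -0.63), and of 6 fibroblast markers 2 were higher. Their part in the collagen differences was not tested.

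The genes that modify, fold, export, process and cross-link collagen, or bind it, were set beside the collagens. Of 74 such genes 69 were tested, and 8 rose and 39 fell in H4K91R (68.1%, against the 46.0% of all genes), while 10 rose and 36 fell in H4K91Q (66.7%, against 46.3%). Their median log2 change was -0.34 and -0.38. The balance of these genes was thus towards lower values, unlike that of the collagens, though no test of that difference was made. Between the mutants 5 were higher and 2 lower in H4K91Q (10.1%, against 5.16%).

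Modifying enzymes were lower in most cases, with 2 of 15 higher and 10 lower in H4K91R (80% called, against 46.0% of all genes). In H4K91Q 2 were higher and 12 lower (93.3%, against 46.3%). P4ha3, a subunit of a prolyl hydroxylase, fell by 1.27 and fell by 1.30 on the log2 scale in H4K91R and H4K91Q (edgeR adjusted p = 1.09e-06 and 1.21e-06). Plod2, a lysyl hydroxylase, fell by 0.63 and fell by 0.73, and Colgalt1, which adds galactose to hydroxylysine, fell by 0.62 and fell by 0.66.

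Folding and export genes had 0 of 17 higher in either mutant. In H4K91R 12 were lower (70.6% called, against 46.0% of all genes), and in H4K91Q 9 (52.9%, near the 46.3% of all genes). Serpinh1, the collagen chaperone HSP47, had 2588, 2657 and 2635 in H4WT, 2059.7, 1847 and 1985 in H4K91R and 1877, 1835 and 1923 in H4K91Q CPM. It fell by 0.42 on the log2 scale in H4K91R (SE 0.063, edgeR adjusted p = 0.000136) and fell by 0.48 on the log2 scale in H4K91Q (SE 0.063, edgeR adjusted p = 4.71e-05). Fkbp10, an isomerase of the endoplasmic reticulum, fell by 1.11 and fell by 1.03. Sec23a, of the coat of export vesicles, fell by 0.52 and fell by 0.47. Pdia3 and the transcription factor gene Creb3l1 were also lower in both, Pdia3 by log2 changes of -0.58 and -0.49 and Creb3l1 by -0.50 and -0.80.

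Of 8 tested processing genes, 2 rose and 3 fell in H4K91R (62.5%, against 46.0% of all genes), and 2 rose and 2 fell in H4K91Q (50%, near the 46.3% of all genes). Bmp1, which cleaves the end of procollagen, fell by 0.38 and fell by 0.59. Its relative Tll1 fell by 1.97 and fell by 2.56, whereas Pcolce2, an enhancer of that cleavage, rose by 1.55 and 1.04.

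Cross-linking enzymes had the lowest median log2 change of these 6 lists, -0.54 in H4K91R and -0.70 in H4K91Q. In these mutants 4 and 5 of 7 were lower and 0 higher (57.1% and 71.4%, against 46.0% and 46.3% of all genes). Lox, the lysyl oxidase that links fibrils, had 529.9, 732 and 806 in H4WT, 54.2, 48.4 and 47.9 in H4K91R and 60.6, 99.4 and 97.7 in H4K91Q CPM. The H4WT values were several times those of every mutant library. Lox fell by 3.78 on the log2 scale in H4K91R (SE 0.18, edgeR adjusted p = 4.73e-08) and fell by 3.01 on the log2 scale in H4K91Q (SE 0.17, edgeR adjusted p = 2.36e-07), and rose by 0.77 on the log2 scale in H4K91Q against H4K91R (SE 0.18, edgeR adjusted p = 0.0301). Loxl2, which acts on collagen IV, fell by 1.44 and fell by 1.88, and Loxl1 fell by 0.94 and fell by 0.98.

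Of 8 tested receptor genes, 1 rose and 4 fell in H4K91R (62.5%, against 46.0% of all genes). In H4K91Q 0 rose and 4 fell (50%, near the 46.3% of all genes). Itgb1, the shared β chain of the collagen-binding integrins, fell by 1.25 and fell by 1.25, and Itga1 fell by 1.26 and fell by 1.89. Ddr1, a receptor kinase for collagen, had a log2 change of -0.14 in H4K91R (edgeR adjusted p = 0.282) and fell by 0.53 in H4K91Q. Cd36 rose by 3.06 in H4K91R from at most 1.44 CPM in H4WT, and its log2 change of 1.66 in H4K91Q did not pass (edgeR adjusted p = 0.0569).

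Of 14 fibril partners, 3 rose and 6 fell in H4K91R (64.3%, against 46.0% of all genes). In H4K91Q 6 rose and 4 fell (71.4%, against 46.3%). Sparc, a collagen-binding protein of basement membranes and fibrils, had 6194, 6229 and 6026 in H4WT, 3760.1, 3306 and 3675 in H4K91R and 3438, 3588 and 3448 in H4K91Q CPM. It fell by 0.78 on the log2 scale in H4K91R (SE 0.066, edgeR adjusted p = 1.18e-06) and fell by 0.82 on the log2 scale in H4K91Q (SE 0.066, edgeR adjusted p = 1.31e-06). Thbs1 fell by 2.73 and fell by 3.03, and Fn1, fibronectin, fell by 2.32 and fell by 2.81. The small leucine-rich proteoglycan genes Lum and Kera rose, Lum by 1.30 and 2.43 and Kera by 3.61 and 3.66 from at most 0.612 CPM. Postn, periostin, rose by 0.48 and 1.08. Between the mutants, Lum, Postn and Abi3bp were higher in H4K91Q by 1.14, 0.61 and 1.49, and Plod3 and Ddr1 were lower (log2 changes of -0.29 and -0.38). Lum and Postn are also markers of fibroblasts, of which 3 of 6 rose and 2 fell in each mutant.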

How the data were processed

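The authors deposited expected counts for each gene, all whole numbers, made with tools that include Salmon 0.8.2 and DESeq2 on build mm10, per the submitters' processing notes. Neither annotation nor strandedness is given in the sources used here. Salmon shares reads between similar genes, so overlapping and near-identical genes carry uncertain values. RefSeq GRCm38.p6 gave symbols for 24045 of 24100 IDs.

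With edgeR 4.0.16 (R 4.3.3), filterByExpr (minimum count 10) kept 14761 genes. Counts were scaled by TMM (factors 0.911 to 1.06), and a quasi-likelihood model held 1 mean for each group over the 9 libraries. Tests were two-sided with Benjamini-Hochberg adjustment over the 14761 genes, checked on simulated data. The labels number the replicates without naming a shared source. Same-numbered H4WT and H4K91Q libraries deviated together in each of 3 pairs (correlations 0.14 to 0.20, above the limit of 0.1 set for pairing), and those of the other comparisons did not in each pair. Differently numbered libraries of H4WT and H4K91Q had -0.24 to 0.036. Elsewhere, libraries with different numbers reached 0.26 (H4WT replicate 2 with H4K91R replicate 3) and 0.22 (H4K91R replicate 3 with H4K91Q replicate 2). These correlations therefore do not show that same-numbered libraries share a source. Standard errors come from the fitted weights. Exon length is that of merged exons in GENCODE M21. Median depth was 16364686 counts; limits from counts cover counting error only.

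Library values are given for collagens with a group mean of at least 20 CPM, for their partners and neighbours, and for called changes of at least 2-fold. Up to 3 called genes of at least 5 CPM per list and contrast were named from the other lists, and the first 3 of each marker list. The genes, lists and tests were chosen with earlier results of these data known. Alternatives were RLE and library-size scaling, other filters, DESeq2 1.42.0, limma-voom (limma 3.58.1), a replicate block, the compared groups only, and leaving out each library.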

Additional observations from a re-analysis of the deposited data

Results flagged for a closer look

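The 2 mutants were compared directly, which is the test of whether their changes against the same H4WT libraries differ, and 5 collagen genes passed it (edgeR, Benjamini-Hochberg adjusted). The log2 change of H4K91Q against H4K91R was -0.39 for Col4a2, lower in H4K91Q, a gene that was below H4WT in both mutants. It was -0.69 for Col18a1, which was above H4WT in both. It was 0.37 for Col16a1, 0.94 for Col6a6 and 0.57 for Col25a1, all above H4WT in both mutants and highest in H4K91Q. In all 5 genes the 3 libraries of 1 mutant lay above the 3 of the other, which adds no support, since the test itself chose these genes. The groups did not overlap for 47.4% of the 38 tested collagen genes and 25.4% of all genes.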

How the results depend on the processing

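Against H4WT, 26 of the 27 collagen calls in H4K91R held in every alternative (all but Col8a2), and 22 of the 26 in H4K91Q (all but Col5a2, Col11a1, Col22a1 and Col17a1). None of the 5 calls between the mutants held in every one. At least 1 alternative brought past the threshold 4 of the 11 uncalled genes in H4K91R (Col11a2, Col20a1, Col2a1 and Col1a1), 5 of 12 in H4K91Q (Col1a2, Col3a1, Col24a1, Col20a1 and Col2a1) and 11 of 33 between the mutants. Leaving out 1 library gave 15 to 16 collagen genes higher and 11 to 14 lower in H4K91R, 13 to 17 and 11 to 12 in H4K91Q, and 0 to 6 each way between the mutants. For the collagen-making genes it gave 7 to 8 and 33 to 39, 8 to 13 and 33 to 40, and 0 to 6 and 0 to 4. Of all genes, the same fits called 2681 to 3086 higher and 3170 to 3754 lower in H4K91R. In H4K91Q they called 2768 to 3369 higher and 3050 to 3592 lower. Between the mutants, the 350 higher and 411 lower of all genes in the main fit became 120 and 68 without H4K91R replicate 2. Without H4K91Q replicate 3 they became 543 and 550.

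Library-size scaling moved the median log2 change of all genes to 0.15 in H4K91R and 0.18 in H4K91Q, and the genes called higher and lower from 3092 and 3705 to 5031 and 2013, and from 3314 and 3516 to 5557 and 2069. It called 18 collagen-making genes higher in H4K91Q, against 10. Under it the uncalled changes of Col1a2, Col24a1 and Col13a1 in H4K91R became 0.13, 0.14 and 0.072, and those of Col1a1, Col11a2, Col4a6 and Col6a5 in H4K91Q 0.11, 0.079, 0.097 and 0.097. Col24a1 in H4K91R was 0.047 with limma-voom. Leaving out 1 library also turned the sign of uncalled changes. In H4K91R they ran from -0.21 to 0.16 for Col1a2, -0.24 to 0.12 for Col24a1, -0.11 to 0.36 for Col6a5 and -0.33 to 0.40 for Col13a1. In H4K91Q they ran from -0.19 to 0.11 for Col1a1, -0.27 to 0.11 for Col4a6, -0.12 to 0.30 for Col9a3, -0.060 to 0.95 for Col8a2 and -0.26 to 0.22 for Col6a5. Between the mutants they ran from -0.0037 to 0.57 for Col2a1, -0.057 to 0.062 for Col27a1, -0.14 to 0.18 for Col15a1 and -0.33 to 0.054 for Col6a5. No called change turned its sign, and the causes were not tested.

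Between the mutants (collagen 3 higher and 2 lower, collagen-making 5 and 2), no filter on low counts gave 7 and 5, and 8 and 4. Of all genes it called 475 higher and 502 lower, against 350 and 411 in the main fit. A mean of at least 1 CPM gave 1 lower collagen gene, DESeq2 4 lower collagen-making genes, and the compared groups only gave 6 higher collagen and 0 lower collagen-making genes. Of all genes, these settings called 336, 346 and 340 higher and 409, 619 and 405 lower, in that order. The replicate block gave 8 higher and 6 lower collagen genes and 9 higher collagen-making genes, and 448 higher and 563 lower of all genes. For H4K91Q against H4WT, where same-numbered libraries passed the limit set for pairing, the block added the calls of Col1a2 and Col3a1 and changed no other collagen call. In the other comparisons the same-numbered libraries did not pass that limit in each pair (correlations -0.16 to 0.17 for H4K91R with H4WT and -0.052 to 0.20 between the mutants). Replicates of a group differed by more than sampling noise.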
